A study of Mus musculus with 2 samples.

Results

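The Notch signalling genes described here are Jag1, Notch1, Notch2, Rfng, Mib1, Mib2, Rbpj, Hes1, Hes5 and Hes6, taken as every probe set annotated to one of these symbols and to no other gene. They are 10 of the 18193 genes with such probe sets, and they hold 21 probe sets. Transcripts were measured in hepatocytes of male FVB mice, 6 to 8 weeks old, on Affymetrix Mouse Genome 430 2.0 arrays. The mice had received, by rapid tail vein injection of 2 ml saline, 10 µg of PT3EF5α EzrinT567D, a plasmid for Ezrin T567D, and 0.8 µg of pCMV/SB, a plasmid for the Sleeping Beauty transposase. Ezrin tethers cell membrane to cortical actin, and the T567D form imitates its phosphorylated, active state. Hepatocytes were isolated with collagenase 1 week after injection and sorted into a GFP- group, called EzrinT567D negative, and a GFP+ group, called EzrinT567D positive, with 1 array in each.

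Several features limit the 2 groups as a model. Both are labelled as cells of injected livers, so the negative group is not an uninjected control. The sources used here state neither the number of mice nor any pooling. The growth protocol gives chow for both samples, whereas the description fields put both at 2 months and name chow for negative but fast food for positive hepatocytes. Diet and the sort label therefore cannot be told apart. Both probe sets for Ezr lay at background in both arrays. Negative and positive signals were 135.3 and 15.7 for one and 7.6 and 13.6 for the other. These probe sets thus gave no check of the labels. Whether they can detect the plasmid transcript was not tested, so they do not show that the transgene was silent. With 1 array per group there is no replicate error, no test between the groups and no p-value.

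Notch signalling works between touching cells. A ligand such as Jag1 on one cell binds a Notch receptor on its neighbour, proteases then free the receptor's intracellular domain, and this domain enters the nucleus and joins the DNA-binding protein Rbpj to switch on genes of the Hes and Hey families. In the liver the pathway is best known for directing progenitor cells to the bile duct fate, with Jag1 around the portal vein and Notch2 in the responding cells. Adult hepatocytes can take on biliary features when the pathway is strongly activated in mice.

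Values are MAS5 signals, which are linear intensities scaled to one overall level per array. Signals of different probe sets cannot be set against each other, so each comparison is between the arrays for the same probe set. Background was read from 84 probe sets for olfactory, vomeronasal, bitter taste and trace amine receptors, and their 95th percentile served as the floor (252.7 in the negative array, 334.0 in the positive). It was exceeded by 40.1% of probe sets in the negative array and 35.0% in the positive one. A ratio is always positive over negative, on the log2 scale, and the brightest probe set stands for its gene. Where only 1 array exceeded its floor, the dim signal was raised to the floor and the ratio is a bound. The floors differed by 0.40 on the log2 scale, so bounds are smaller on the lower side. All 8 hepatocyte markers with probe sets, among them Alb, Ttr and Hnf4a, exceeded the floor in both arrays.

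The pathway was represented unevenly at the level of signal over background. Of the 21 probe sets, 11 exceeded the floor in both arrays, 3 in the negative array only, 1 in the positive array only and 6 in neither. By gene, 8 of 10 members were measured in both arrays, Hes5 exceeded the floor in the positive array only, and Jag1 exceeded it in neither. Among the 8 measured members 2 read higher in the positive array (Notch1 and Hes1) and 6 lower (Notch2, Rfng, Mib1, Mib2, Rbpj and Hes6). Over all 8362 genes measured in both arrays 50.6% read higher and 49.4% lower. The median log2 ratio of the 8 members was -0.27 (1.20-fold lower), against 0.00 for all genes, whose 10th and 90th percentiles were -0.40 and 0.47. In RNA from a sorted bulk sample, fewer cells of a type and less RNA per cell cannot be told apart.

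**Figure D1:**
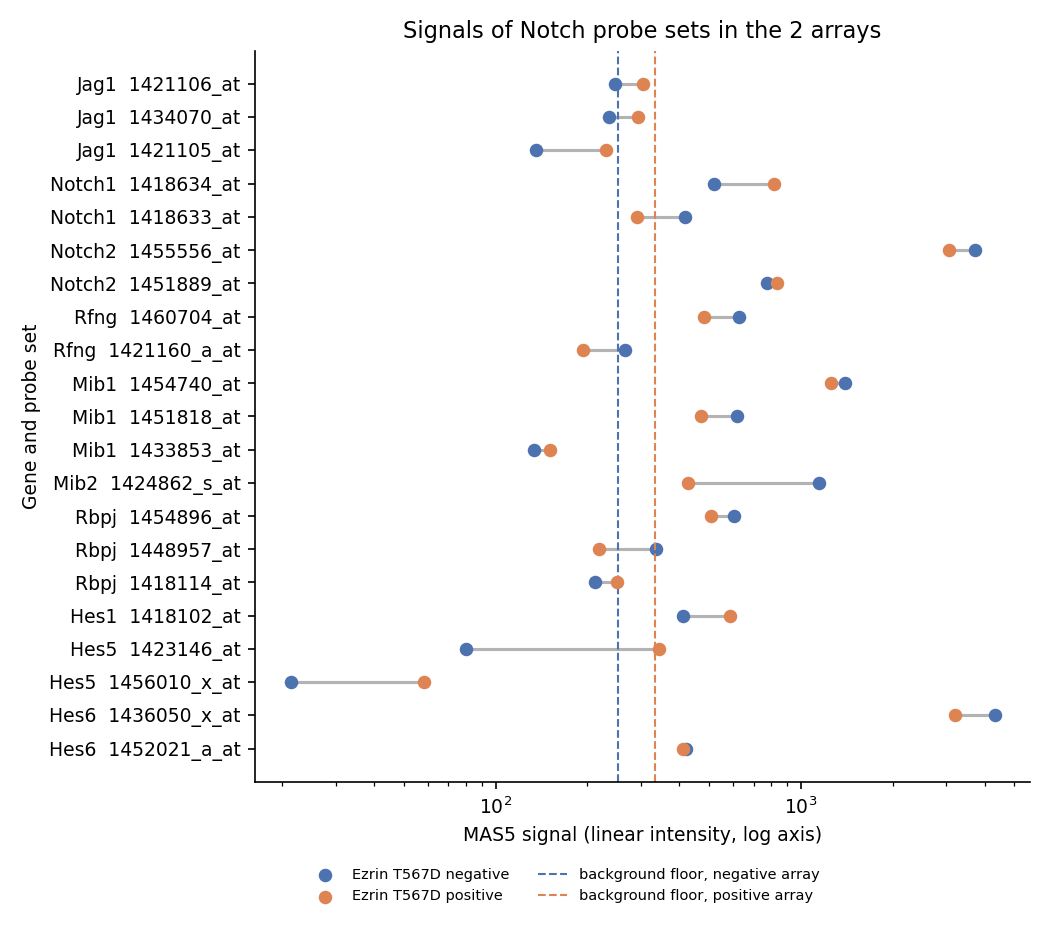
MAS5 signal (linear intensity on a log axis) of each of the 21 probe sets in the negative (blue) and positive (orange) array, joined by a grey line, with each array's background floor as a dashed line. The Mib2 probe set shows the widest gap on this axis among those above both floors (1151.0 and 425.8), and all 3 Jag1 probe sets lie below both floors.

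The error that these arrays allow comes from genes with several probe sets. For 3182 genes 2 or more probe sets exceeded both floors. The difference in log2 ratio between the brightest and the next had an SD of 0.42, and 40.6% of these pairs differed in sign. This SD came to 0.47 for pairs whose dimmer member had a mean signal under 500, 0.46 from 500 to 1000, and 0.33 at 1000 or more. This spread includes differences between transcript forms and leaves out the spread between animals. As the SD of a difference between 2 ratios, it is wider than the spread of 1 ratio if both vary alike and independently. A single ratio under 0.42 in size can therefore still exceed its own spread. Of the 8 members with more than 1 probe set, 4 had probe sets of opposite sign (Notch1, Notch2, Mib1 and Rbpj), counting those below the floor.

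Jag1, the ligand whose loss in people causes the bile duct disorder Alagille syndrome, stayed at background. Its 3 probe sets read 246.2, 235.4 and 135.9 in the negative array and 303.0, 293.1 and 230.2 in the positive array. Each was brighter in the positive array and each lay under that array's floor, so no ratio is given. Such a signal does not show that the transcript was absent.

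The receptor Notch1 gave 2 opposite readings. Probe set 1418634_at read 521.3 in the negative array and 815.3 in the positive one, a log2 ratio of 0.65 (1.56-fold higher). Probe set 1418633_at, annotated to the same RefSeq transcript, read 419.0 in the negative array and 290.8, below the floor, in the positive array, a bound of -0.33 (at least 1.25-fold lower). The brighter probe set alone would place Notch1 among the 4.81% of measured genes with a ratio at least as high. The mean log2 ratio of both probe sets as deposited was 0.06, so the direction for Notch1 rests on which probe set is read.

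The receptor Notch2, the main Notch receptor of the mouse biliary epithelium, differed little. Probe set 1455556_at read 3714.8 and 3063.7 in the negative and positive arrays, a log2 ratio of -0.28, and 1451889_at read 774.0 and 833.8, a ratio of 0.11. Both lay well above the floor in both arrays, and they differed in sign with a gap of 0.39, under the SD of 0.42 between probe sets of a gene. Notch3 and Notch4, the other receptors of the family, were below the floor in both arrays in all 5 probe sets, which read at most 245.9 in the negative array and 234.8 in the positive one.

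Rfng (radical fringe) adds a sugar to the fucose residues of Notch receptors and so alters which ligands they respond to. Probe set 1460704_at read 625.2 in the negative array and 481.1 in the positive one, a log2 ratio of -0.38 (1.30-fold lower). The other, 1421160_a_at, read 266.3 and 193.0 and exceeded the floor in the negative array only, with no bound in that direction because the positive floor was higher than 266.3. Both probe sets were thus dimmer in the positive array, by a size within the SD between probe sets for the first. The related fringe genes Lfng and Mfng were below the floor in both arrays.

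Mib1 and Mib2 are ubiquitin ligases that mark Notch ligands for endocytosis in the sending cell, a step that pulls on the bound receptor. Mib2 had the ratio farthest from 0 among the 8 members above both floors, with signals of 1151.0 in the negative array and 425.8 in the positive one. The log2 ratio was -1.43 (2.70-fold lower), and 0.132% of measured genes had a ratio as low. This value comes from the only Mib2 probe set, 1424862_s_at, so no second probe set could be set beside it. The suffix _s_at marks probes shared by several transcripts. The positive signal was just under the stricter floor of 426.2, the 99th percentile of the receptor probe sets. Mib2 was the only member at 2-fold or more in either direction, and 0 members were 2-fold higher. Its mean signal was up to 1000, and 0.496% of measured genes in that range were at least 2-fold lower. In the background, 0.58% of the 10178 genes above the floor in 1 or both arrays were at least 2-fold lower and 1.34% at least 2-fold higher.

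Mib1 read lower in each probe set above both floors. The sizes were under 0.42, an SD for differences between 2 ratios and so a wide measure for 1 ratio. Its brightest probe set, 1454740_at, read 1396.0 and 1252.0 in the negative and positive arrays (log2 ratio -0.16), and 1451818_at read 617.4 and 471.5 (-0.39). The third, 1433853_at, was below the floor in both arrays at 133.2 and 151.2. The log2 ratio of Mib2 lay 1.05 below that of the nearest Mib1 probe set and 1.28 below that of the brightest. Whether the 2 ligases differ in response was not tested, since each array is a single sample.

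Rbpj, through which all Notch receptors act on DNA, read slightly lower. Probe set 1454896_at read 605.4 in the negative array and 506.3 in the positive one, a log2 ratio of -0.26. Probe set 1448957_at read 334.4 and 217.6, above the floor in the negative array only, with a bound of at least 1.00-fold lower. The dimmest, 1418114_at, read 211.1 and 250.1, below the floor in both arrays. The only probe set above both floors was thus within the SD between probe sets.

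**Figure D2:**
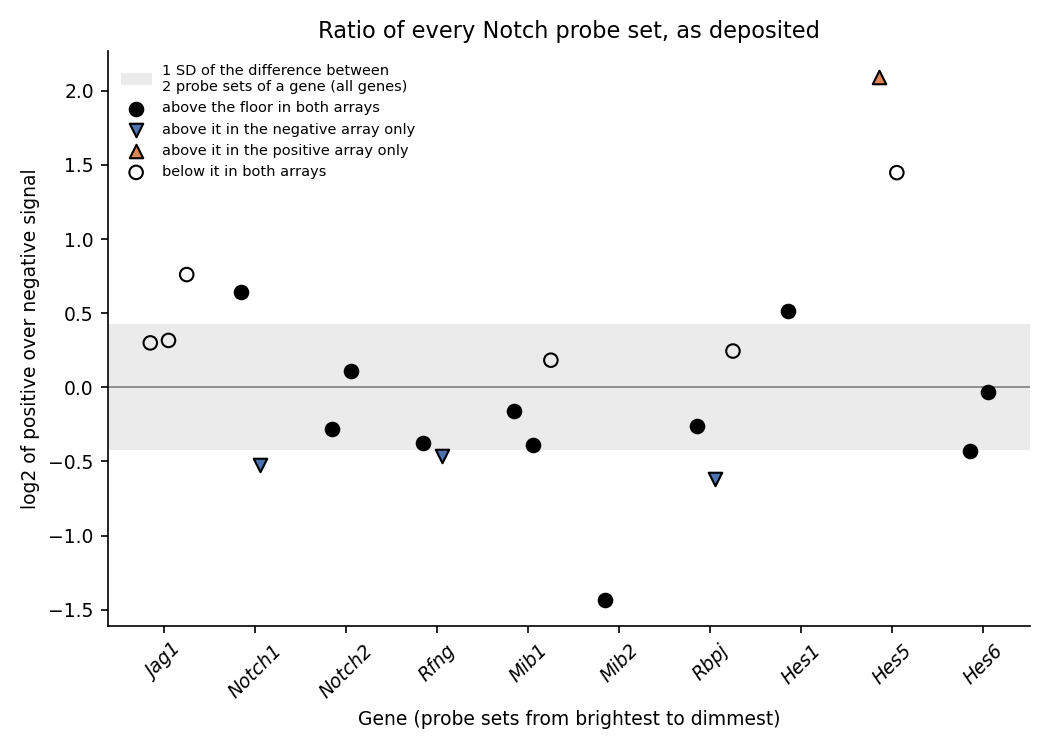
Log2 ratio, positive over negative array, as deposited, for every probe set of the 10 genes, ordered from brightest to dimmest within a gene. Filled circles exceeded the floor in both arrays, triangles in 1 array, and open circles in neither. The grey band spans 1 SD (0.42) of the difference between 2 probe sets of a gene over all genes, and is no spread of a single ratio. Mib2 (-1.43), Notch1 (0.65) and Hes1 (0.51) have brightest probe sets above both floors and outside the band, and Hes6 (-0.43) lies just outside its edge.

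The Hes genes encode basic helix-loop-helix repressors. Hes1 and Hes5 are direct targets of Notch and Rbpj in many mouse tissues, while Hes6 is known to oppose Hes1 and is not a typical Notch target. Hes1 read 411.5 in the negative array and 587.0 in the positive one in its only probe set, 1418102_at, a log2 ratio of 0.51 (1.43-fold higher). Of all measured genes 8.22% had a ratio at least as high. Hes1 and Notch1 were the 2 members at a log2 ratio of 0.5 or more, and Mib2 the 1 member at -0.5 or less. In the background 9.27% of genes above the floor in 1 or both arrays reached 0.5 and 5.99% reached -0.5. Both Hes1 and Notch1 have mean signals up to 1000, and among 4433 such genes measured in both arrays 12.6% reached 0.5 and 6.5% reached -0.5.

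Hes5 came above background in the positive array by a narrow margin. Probe set 1423146_at read 80.1 in the negative array and 341.8 in the positive one, where the floor was 334.0. The signals as deposited differed 4.27-fold, but the negative one was below its floor, so the bound is at least 1.35-fold higher (0.44 on the log2 scale). With the higher floor used for both arrays the bound was 0.03 on that scale. Probe set 1456010_x_at read 21.3 and 58.1, below the floor in both arrays. With the floors at the 99th percentile of the receptor probe sets, 341.2 and 426.2, Hes5 was below both.

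Hes6 read lower, or even, depending on the probe set. The bright probe set 1436050_x_at read 4313.5 and 3201.1 in the negative and positive arrays, a log2 ratio of -0.43 (1.35-fold lower), with 8.50% of measured genes at least as low. Its suffix marks probes that may bind other transcripts. The other, 1452021_a_at, read 421.1 and 411.6 (-0.03). The signals of both were above the floor in both arrays, and neither was higher in the positive array.

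The promoters of Hes5 and Hes6 are shown because the 2 genes belong to one family and Rbpj recognises a short motif that can be searched. They were picked because their brightest probe sets read in opposite directions, although Hes5 has only a bound near the floor. Whether the motif bears on either value was not tested. The motif GTGGGAA was searched on both strands, from 250 bases before to 50 bases after the gene start, in the RefSeq promoter table of build GRCm38.p6, which held 8 of the 10 members in 11 promoters. Capitals mark the motif, read as GTGGGAA or, on the other strand, as TTCCCAC. Each sequence is 5′ to 3′ on the strand of its gene, and the Hes6 promoter is the more upstream of 2 in the table.
Hes5, chr4:154960673-154960972, plus strand: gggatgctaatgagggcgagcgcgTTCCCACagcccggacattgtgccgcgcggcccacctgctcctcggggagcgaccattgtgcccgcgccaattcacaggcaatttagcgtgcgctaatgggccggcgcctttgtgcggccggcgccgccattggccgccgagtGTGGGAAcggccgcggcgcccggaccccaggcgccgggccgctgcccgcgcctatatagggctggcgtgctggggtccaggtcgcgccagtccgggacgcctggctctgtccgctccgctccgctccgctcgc
Hes6, chr1:91413989-91414288, minus strand: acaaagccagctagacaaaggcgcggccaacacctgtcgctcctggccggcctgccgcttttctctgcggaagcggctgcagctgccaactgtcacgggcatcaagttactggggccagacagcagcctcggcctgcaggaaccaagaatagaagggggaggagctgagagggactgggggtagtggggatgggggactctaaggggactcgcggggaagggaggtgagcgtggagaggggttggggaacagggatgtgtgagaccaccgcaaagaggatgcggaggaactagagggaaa
The Hes5 promoter holds the motif at 2 places on opposite strands, beginning 226 and 83 bases before the gene start. The motif occurs at least once in 6.38% of the 32851 promoters and at least 2 times in 0.256%. None of the other 10 member promoters, both Hes6 promoters included, holds these letters. The shorter core TGGGAA, which lies within GTGGGAA, is in 25.6% of all promoters and, among the members, in those of Hes5 and Rbpj. A match describes letters and not a bound site, and Hes1 and Mib1 were not searched.

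**Figure D3:**
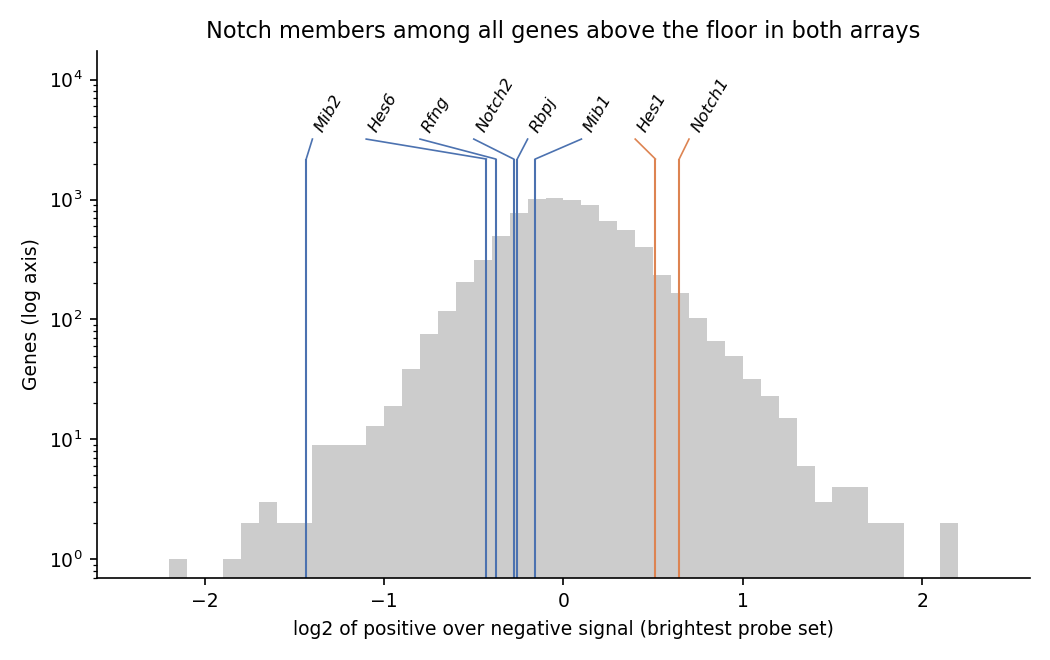
Number of genes (log axis) by log2 ratio (positive over negative array), for the 8362 genes measured in both arrays, with the 8 measured members as lines, blue where lower and orange where higher in the positive array. Mib2 (-1.43) lies in the sparse lower tail, 5 others lie between -0.43 and -0.16, and Hes1 (0.51) and Notch1 (0.65) lie on the upper flank.

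The wider pathway was followed in a list of 75 further genes, of which 69 had a probe set of their own and 47 exceeded the floor in 1 or both arrays. Of the 41 measured in both arrays 20 read higher and 21 lower in the positive array, with a median log2 ratio of -0.03, close to the 0.00 of all genes (0.041 without probe sets with shared probes, so its sign is not settled). At least 2-fold differences were counted for 0 genes in the higher and 2 in the lower direction (Aph1a and Aak1), where 2 is 4.26% of the 47. Over all 10178 genes above the floor in 1 or both arrays the shares were 1.34% higher and 0.58% lower.

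Among the proteases that release the receptor, all 8 genes with probe sets were measured, 5 higher and 3 lower. Aph1a, a subunit of the gamma-secretase complex that makes the final cut, read 2430.8 in the negative array and 1084.6 in the positive one (1424979_at), a log2 ratio of -1.16 (2.24-fold lower). Its other probe sets were also dimmer in the positive array, at 1802.0 and 1281.2 (1451554_a_at, -0.49) and at 444.8 and 209.1 (1424980_s_at, a bound of -0.41). All 3 Aph1a probe sets thus read the same way, with sizes that differed. Furin, which cleaves the receptor during its maturation, read 6165.6 and 4420.9 (-0.48). Aph1b, the other measured Aph1 gene, read 725.1 and 553.9 (-0.39). The remaining gamma-secretase subunits Ncstn (0.26), Psenen (0.15) and Psen2 (0.10) had positive log2 ratios in their brightest probe sets, as did the sheddase Adam10 (0.15, with 0.11 and -0.04 in the other probe sets above both floors). The sheddase Adam17 was mixed, with log2 ratios of 0.36 (555.3 and 710.4), -0.56 (709.3 and 480.7) and -0.23 (583.2 and 496.7) in 3 probe sets above both floors.

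Among inhibitors and turnover genes 8 were measured, 1 higher and 7 lower by their brightest probe sets. Second probe sets above both floors read higher for Dtx2 (0.24), Dtx3l (0.17) and Fbxw7 (0.34), whose brightest read -0.15, -0.19 and -0.12. Apart from Aak1, the remaining lower genes had no second probe set above both floors. Aak1, a kinase of clathrin-coated pits that acts with the Notch inhibitor Numb, read 1519.3 and 750.4 in its brightest probe set (-1.02, 2.02-fold lower), but its next probe set read 626.5 and 675.5 (0.11). The 2 Aak1 probe sets above both floors therefore differ by more than the SD between probe sets. Cdk8, which marks the Notch intracellular domain for degradation, read 756.6 and 561.3 (-0.43), and Numb read 1512.5 and 1223.9 (-0.31). Dtx3, a Deltex family member, read 276.2 and 365.6 (0.40), near both floors.

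Cir1 and Pofut1 had the 2 highest ratios among the further genes measured in both arrays. Of the 47 further genes above the floor, 3 reached a log2 ratio of 0.5 and 3 reached -0.5, measured or as bounds. Over all genes above the floor the shares were 9.27% and 5.99%. Cir1 and Pofut1 have mean signals up to 1000, where 12.6% of measured genes reached 0.5. Cir1, a corepressor that binds Rbpj, read 560.7 in the negative array and 1113.2 in the positive one, a log2 ratio of 0.99 (1.99-fold higher) from 1 probe set. Pofut1, which attaches fucose to Notch receptors, read 304.1 and 521.5 (0.78, 1443881_at) and 196.3 and 434.7 (1450137_at, a bound of 0.78). The dimmest by mean signal, 1456323_at, was below both floors at 197.5 and 264.8. All 3 Pofut1 probe sets were brighter in the positive array, with negative signals near or below the floor. The floor itself was higher in the positive array, by 0.40 on the log2 scale. Poglut1 and Eogt, which also modify Notch receptors, had log2 ratios of -0.34 and 0.30, and a dimmer Eogt probe set had a bound of -0.15.

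Ligands and targets were mostly dim. The ligands Jag2 (457.5 and 479.7, 0.07) and Dll1 (364.3 and 423.9, 0.22) were measured in both arrays, and Dll4 was below the floor in both. The other Jag2 probe set read 239.4 and 430.6, a bound of 0.77 (at least 1.70-fold higher). Dlk2, also listed as a ligand, exceeded the floor in the negative array only. It read 533.3 and 231.1 in its brightest probe set, a bound of -0.67 (at least 1.60-fold lower). Dll3 and Dner also exceeded the floor in the negative array only, with no bound. Of 11 further targets with probe sets, 8 were below the floor in both arrays by their brightest probe set, among them Hey1, Hey2 and Heyl. A dimmer probe set of one of these, Nrarp, exceeded the floor in the negative array (266.0 and 180.3). Ccnd1, the cyclin D1 gene, which many pathways besides Notch induce, was brighter in the positive array in all 3 probe sets, with log2 ratios of 0.49, 0.54 and 0.44 (2785.2 and 3906.4 in the brightest). Hes2 had a bound of 0.57, from 211.6 and 374.2, and Myc read 1029.5 and 1046.8 (0.02).

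**Figure D4:**
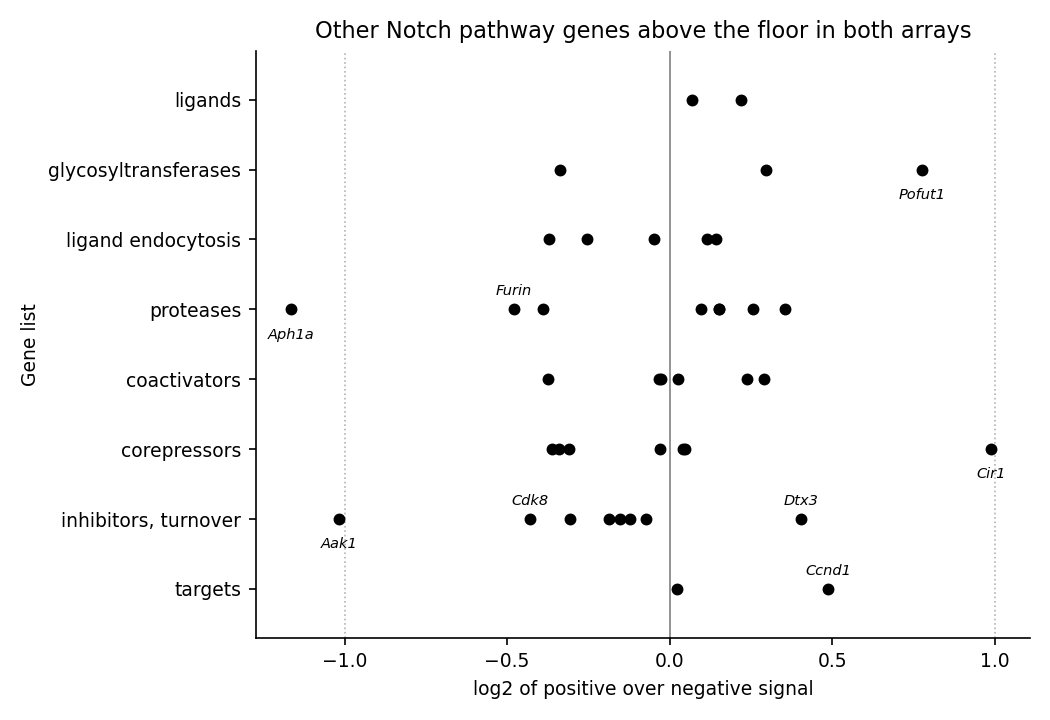
Log2 ratio, positive over negative array, for each further Notch pathway gene above the floor in both arrays, one point per gene, by role; dotted lines mark 2-fold. Aph1a (-1.16) and Aak1 (-1.02) lie beyond the lower line and Cir1 (0.99) lies just inside the upper one.

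Other cell types of the liver express Notch genes. Of 7 cholangiocyte markers with probe sets, Krt19, Krt7, Epcam, Sox9, Cftr and Muc1 stayed under both floors, and Cldn7 exceeded it in the negative array only. The summed signal of the 7 was 900.6 in the negative array and 973.1 in the positive one. Endothelial cells express Notch1 strongly, and 8 of 10 endothelial markers exceeded the floor in 1 or both arrays, while Pecam1 and Lyve1 did not. Of the 7 measured in both, 6 read higher and 1 lower, with a median log2 ratio of 0.18 and a range from -0.36 (Egfl7) to 0.84 (Cdh5), and the summed signal of the 10 was 5432.4 and 5961.8. Their part in the Notch1 and Hes1 values was not tested.

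The remaining context lists read as follows. Of 10 stellate and mesenchymal markers 7 were measured in both arrays, 3 higher and 4 lower, with summed signals of 3774.5 and 3581.6. Of 10 Kupffer cell and macrophage markers 4 exceeded the floor in 1 or both arrays. Clec4f (379.2 and 354.7), Csf1r (558.7 and 702.1) and C1qb (1214.2 and 765.8) did so in both, and Cd5l in the negative array only. Adgre1, Vsig4, Marco and Timd4 were among those that did not. The summed signals of the 10 were 3331.7 and 2584.6. Of 8 blood cell markers with probe sets 1 exceeded the floor, Cd79a in the negative array only, with sums of 1000.5 and 728.9. All 8 hepatocyte markers read lower in the positive array, with a median log2 ratio of -0.21.

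Other lists of genes also differed between the arrays. Of 12 immediate early genes, which tissue dissociation can induce, 10 were measured in both arrays and all 10 read higher, with a median log2 ratio of 0.87 and summed signals of 32412.8 and 48522.3. Pericentral genes, expressed around the central vein, read higher in 10 of 10 members (median log2 ratio 1.08, sums 50472.2 and 92160.9), and periportal genes read lower in 7 of 8 (median -0.84, sums 78253.0 and 43875.2). The part of either in the ratios of Hes1, Mib2 and the other members was not tested.

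**Figure D5:**
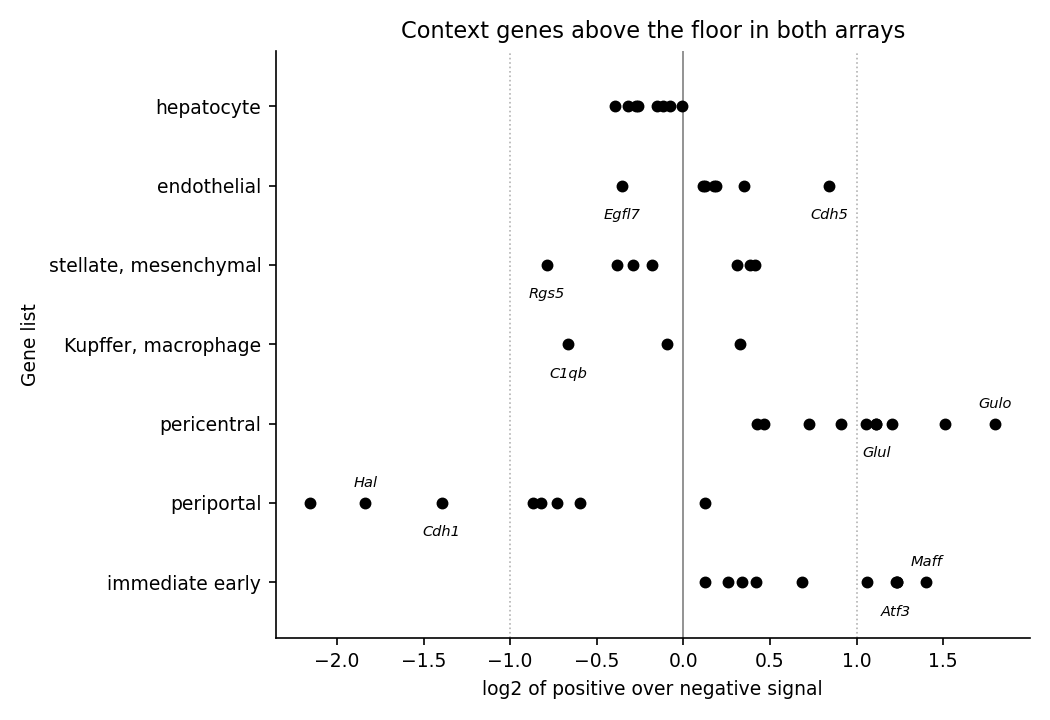
Log2 ratio, positive over negative array, for each gene above the floor in both arrays, one point per gene, in lists of cell type markers, liver zones and immediate early genes; dotted lines mark 2-fold. Pericentral and immediate early genes lie to the right of 0, 7 of 8 periportal genes lie to the left, and endothelial markers run from -0.36 to 0.84.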

How the data were processed

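The deposited values are probe set signal intensities on a linear scale, made with MAS5 per the submitters' processing notes, and their 2% trimmed mean was 500.0 in both arrays. The sources used here do not state its version, settings or detection calls. Such scaling hides any shift common to all transcripts. Groups came from the group label.

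Among 45101 probe sets, 34945 were annotated to 1 gene, 932 to several genes and 9160 to no gene, and the other 64 are controls. Symbols came from GEO's platform annotation, and 34741 of those with 1 symbol matched a RefSeq gene by Entrez ID with 0 changed. Only probe sets with 1 symbol were used. Floors, bounds and log2 ratios were computed with Python 3.11.15, pandas 2.3.3 and numpy 2.4.6, with loess from statsmodels 0.14.6. The calculation was tested on simulated data with large changes in bright genes only. Bounds and small ratios of dim genes, such as most members have, were not tested in this way. Member genes and gene lists were chosen with earlier results of these data known. Named genes are all members, and of the other pathway genes those at 2-fold or more and the 4 highest and 4 lowest ratios measured in both arrays, with further genes as examples picked after their values were seen. No gene was chosen for likeness of pattern, since 2 arrays give each gene 1 ratio. Alternatives were other floors, quantile and loess normalization, a pseudocount, means over probe sets, and leaving out probe sets with shared probes. The number of arrays limits the precision. The 6 pathway genes without a probe set of their own were not analysed here.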

Additional observations from a re-analysis of the deposited data

How the results depend on the processing

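No paired analysis was possible because each group held 1 array. Under 10 alternatives, 2 of them chosen after seeing the data (the floor with Tas1r receptors and the mean over all probe sets), 134 of 146 values moved by less than the spread between probe sets (for a median, that spread divided by the square root of its number of genes) or, for counts, stayed within 1.5 times. Part of this count was fixed in advance. Changing the floor cannot alter a measured ratio that stays above both floors, and averaging probe sets cannot alter a gene with 1, such as Hes1. Notch1, Hes1 and Mib2, the members beyond 0.5 in size in the main setting, did not change sign. Hes1 and Mib2 have 1 probe set each, and no alternative read the opposite Notch1 probe set alone. Their unchanged signs therefore say little. The log2 ratio of Mib2 ranged from -1.49 to -1.25 and that of Hes1 from 0.41 to 0.51. The median over Notch members, -0.27 in the main setting, ranged from -0.28 (quantile normalization) to -0.12 (mean over all probe sets). It was -0.21 without a floor and also without the shared probe sets. Without probe sets ending in _s_at, _x_at or _a_at Mib2 has no value, so 0 members were at 2-fold lower and 0 at -0.5 or less. Without a floor, and with the mean over all probe sets, 1 member (Hes5, 2.09 and 1.77) was at 2-fold higher, whereas with 1 floor for both arrays the Hes5 bound was 0.03. Notch1 was 0.06 with the mean over all probe sets. The count at 0.5 or more was 1 (Notch1) with quantile normalization, loess and the pseudocount of 100. The median of other pathway genes was 0.048 without a floor, 0.041 without the shared probe sets, 0.037 with the mean over probe sets above the floor (24 of 41 genes higher) and 0.026 with the mean over all, against -0.027, so its sign depends on the probe sets and the floor. The floors leave genes such as Jag1 and Hes5 with a bound or no ratio.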
